A study of Homo sapiens with 4 samples.

Results

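Replication-dependent histone genes, which supply the bulk histones that package newly copied DNA, were examined for occupancy by the O-GlcNAcase OGA, which takes the sugar O-GlcNAc off nuclear and cytosolic proteins. Members were all genes in either deposited list of regions whose symbol starts with H1-, H2AC, H2BC, H3C or H4C followed by a digit. The rule found 48 genes among 6757 in either list. Of these, 23 were in the OGA knockdown list and 47 in the control list, and 22 were in both. They carried 26 of the 1334 knockdown regions and 55 of the 8977 distinct control regions. RefSeq lists 46 of the 48 as protein-coding, and the other two, H2BC19P and H2BC20P, as pseudogenes.

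CUT&Tag, in which an antibody guides a transposase to cut and tag nearby DNA, was run with an antibody to OGA in H9, an established human embryonic stem cell line. Cells were naive cultures in PXGL medium, which combines N2B27 with inhibitors of MEK (PD0325901), tankyrase (XAV939) and protein kinase C (Gö 6983) and with human LIF, over a layer of mouse embryonic fibroblasts. There were 2 libraries labelled shOGA, with the genotype given as OGA knockdown, and 2 labelled ctrl, with the genotype given as WT, and no treatment was recorded for either group. The labels do not say whether replicates were separate cultures or how the knockdown was induced, and the lists cannot check the knockdown itself. Each list merges both replicates, with at least 1 numbered peak of each behind every region, and gives no counts or scores. Depth is therefore unknown, and a region shows where signal was called, not how strong it was.

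Histone genes of this kind are transcribed mainly in S phase, lack introns in most cases, and end their messages in a stem-loop in place of a poly(A) tail. Most lie in a large cluster on chromosome 6 and a smaller one on chromosome 1, where nuclear bodies organised by NPAT gather their transcription and processing factors. H2A, H2B, H3 and H4 form the nucleosome core and H1 is the linker histone. Many H2A and H2B genes stand head to head and share the DNA between their starts as a promoter. The octamer ATTTGCAT is a known binding site of OCT factors in H2B promoters.

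Promoter windows of 6 genes are shown as examples. Coverage of their start sites differed between genes, and between lists only at H1-2. Each runs from 250 bases before to 50 bases after the RefSeq start, is written in the direction of the gene, and comes from RefSeq, GRCh38.p14. Capitals mark matches on either strand to 5 motifs. These are the TATA box with the letters TATAAA, the CCAAT box, the octamer ATTTGCAT, the box AAACACA known from H1 promoters, and the core GGTCC known from H4 promoters.
H2AC6, chr6:26123922-26124221, + strand: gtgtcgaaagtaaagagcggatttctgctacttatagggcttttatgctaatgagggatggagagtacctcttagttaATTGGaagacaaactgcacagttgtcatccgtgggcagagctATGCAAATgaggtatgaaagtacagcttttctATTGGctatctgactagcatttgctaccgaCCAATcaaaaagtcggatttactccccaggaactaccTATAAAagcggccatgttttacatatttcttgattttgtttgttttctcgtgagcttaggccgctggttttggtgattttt
H2AC11, chr6:27132793-27133092, + strand: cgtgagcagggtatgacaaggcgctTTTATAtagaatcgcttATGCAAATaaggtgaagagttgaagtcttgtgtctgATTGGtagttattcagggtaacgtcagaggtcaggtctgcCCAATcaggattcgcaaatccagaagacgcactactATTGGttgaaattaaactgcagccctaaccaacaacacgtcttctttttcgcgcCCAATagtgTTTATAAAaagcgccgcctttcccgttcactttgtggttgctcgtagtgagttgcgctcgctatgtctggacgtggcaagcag
H2BC14, chr6:27814772-27815071, + strand: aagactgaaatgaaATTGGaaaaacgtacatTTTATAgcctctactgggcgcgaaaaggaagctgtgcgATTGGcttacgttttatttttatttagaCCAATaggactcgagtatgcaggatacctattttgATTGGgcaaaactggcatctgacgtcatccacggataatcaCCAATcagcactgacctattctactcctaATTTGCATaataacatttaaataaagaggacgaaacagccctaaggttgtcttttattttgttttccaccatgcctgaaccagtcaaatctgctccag
H3C6, chr6:26223928-26224227, + strand: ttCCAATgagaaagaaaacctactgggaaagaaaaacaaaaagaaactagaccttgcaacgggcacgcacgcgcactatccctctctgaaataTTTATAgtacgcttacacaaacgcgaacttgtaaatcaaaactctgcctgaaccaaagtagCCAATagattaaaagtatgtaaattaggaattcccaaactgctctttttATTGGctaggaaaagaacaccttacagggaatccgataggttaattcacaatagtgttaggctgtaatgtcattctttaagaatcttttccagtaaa
H4C8, chr6:26285485-26285784, - strand: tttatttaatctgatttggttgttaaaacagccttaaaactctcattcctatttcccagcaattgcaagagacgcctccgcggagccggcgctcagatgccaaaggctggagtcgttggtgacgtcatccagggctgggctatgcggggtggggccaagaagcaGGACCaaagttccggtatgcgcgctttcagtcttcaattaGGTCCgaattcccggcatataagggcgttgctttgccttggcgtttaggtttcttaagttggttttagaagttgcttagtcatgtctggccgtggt
H1-2, chr6:26056421-26056720, - strand: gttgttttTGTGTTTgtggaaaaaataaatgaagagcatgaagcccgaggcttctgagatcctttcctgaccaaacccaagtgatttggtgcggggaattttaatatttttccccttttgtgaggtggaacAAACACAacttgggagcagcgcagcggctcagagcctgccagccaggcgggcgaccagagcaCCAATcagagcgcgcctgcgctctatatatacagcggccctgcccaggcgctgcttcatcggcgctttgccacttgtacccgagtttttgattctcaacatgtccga

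Knockdown regions covered all 300 bases of the H2AC6, H2AC11 and H3C6 windows and 295 of the 300 in H4C8. They covered 0 bases of the H1-2 and H2BC14 windows. Control regions covered all 300 bases of each of these windows except that of H2BC14, where they covered 0. The H2AC6 window reaches to the start of the divergent H2BC4, and the H2AC11 window to that of H2BC11. In H2AC11 the last TATA matches on the plus and minus strands share bases.

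A promoter window was found for 42 of the 46 coding members, and for 39 of them its start was the same as in the deposited annotation. The octamer was present in 54.8% of the 42 windows, against 1.80% of 27305 RefSeq promoter windows of the same length. It was found in 11 of 12 H2A windows, 11 of 12 H2B windows and 1 of 6 H3 windows, and in 0 of 5 H1 and 0 of 7 H4 windows. The windows of a divergent H2A-H2B pair share most of their DNA, so 1 octamer can be counted for both classes. The 42 windows are therefore not 42 separate promoters. CCAAT occurred in 88.1% of member windows, against 35.7% of all, and TATAAA in 71.4%, against 12%. AAACACA was in 14.3% of member windows, against 5.76% of all, and in 5 of 5 H1 windows. GGTCC was in 33.3% of member windows, against 46.1% of all, and in 7 of 7 H4 windows.

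Motif content was also set side by side for members named in the knockdown list and those named in the control list only, with no test. This split goes by gene name, so the control-only windows include those of H2BC8, H2BC11 and H2BC17, whose starts lie inside knockdown regions named for their neighbours. The octamer was in 55.0% of the 20 windows of genes in the knockdown list, against 54.5% of the 22 windows of genes in the control list only. TATAAA was in 80.0% of the knockdown-listed windows and 63.6% of the control-only windows, and CCAAT in 80.0% and 95.5%. In 5 of 7 divergent H2A-H2B pairs, described below, only 1 of the genes was named in the knockdown list. Windows of the genes of such a pair hold largely the same DNA, so 1 match can count on both sides. Near-equal shares are therefore partly built in. With these numbers of windows a share moves by several percentage points for each gene. The motifs describe the letters and were not tested as binding sites.

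Control regions at histone genes were overlapped by a knockdown region, by at least 1 bp, in 24 of 55 cases, or 43.6% (Wilson 95% interval 31.4% to 56.7%). Over all 8977 control regions the share was 10.0%. In the other direction, 25 of the 26 histone knockdown regions overlapped a control region, or 96.2% (81.1% to 99.3%), against 69.0% of all knockdown regions. By gene, 22 of 47 histone genes of the control list were also in the knockdown list, or 46.8% (33.3% to 60.8%), against 14.3% of all control-list genes. Of the 23 histone genes in the knockdown list 22 were in the control list, or 95.7% (79.0% to 99.2%), against 79.0% of all. With sharing defined by centres within 500 bp, it was 38.5% of histone knockdown regions, below the 52.2% of all knockdown regions, and 18.2% of histone control regions, above the 7.75% of all. Limited to the 1334 widest control regions, 46.2% of histone knockdown regions overlapped, against 17.8% of all. The intervals cover counting error only, and neighbouring genes share loci and libraries, so the regions are not independent.

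Promoter annotation, within 3 kb of a start, was carried by 25 of 26 histone knockdown regions, against 39.1% of all knockdown regions. In control it was carried by 48 of 55 histone regions, or 87.3%, against 46.9% of all control regions. Set beside all such genes in RefSeq, 22 of 74 coding histone genes had a knockdown region (29.7%) and 46 had a control region (62.2%). Over 20052 protein-coding genes these shares were 3.97% and 21.7%. Another 27 of the 74 histone genes were in neither list. One of the 46, H4C16, is listed under the older symbol H4-16 and is therefore not a member. Its control region on chromosome 12, at chr12:14768959-14772501 and 3543 bp wide, had no knockdown overlap.

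The classes differed in how many of their genes were in the knockdown list. H4 genes, whose product is the most uniform core histone, were listed after knockdown in 5 cases (H4C2, H4C3, H4C4, H4C5 and H4C8) and in control in 8. H2A genes were listed after knockdown in 8 cases and in control in 13, and all 8 were in both lists. H2B genes were listed in 6 and 14 cases, with all 6 in both lists. H1 genes were listed in 2 and 5 cases, the 2 being H1-2 and H1-3. H3 genes were listed in 2 and 7 cases, and only H3C6 was in both. By region, 5 of 9 control regions at H4 genes, 9 of 15 at H2A genes, 6 of 17 at H2B genes, 3 of 7 at H1 genes and 1 of 7 at H3 genes were overlapped by a knockdown region. Over all features, 14.3% of control-list genes were also in the knockdown list and 10.0% of control regions were overlapped. The H3 shares, 1 of 7 by gene and by region, were near these. The order of H2A and H2B depends on naming, since by start covered after knockdown it was 6 of 13 H2A and 7 of 12 H2B coding genes. With so few regions in a class, these differences between classes were not tested.

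The H3 counts turn on how a region is named, since the nearest start decides the gene. H3C2 is the one member in the knockdown list only, with regions of 795 bp at chr6:26029523-26030317 and 918 bp at chr6:26031917-26032834. The second covered the H3C2 start and lay wholly inside the control region named for H2AC4, at chr6:26031852-26036536 and 4685 bp wide. The first lay in a gap of the control list and was the sole histone knockdown region with no control overlap. At H2BC5, likewise, the wider knockdown region lay inside the control region named for H1-4.

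Overlap also varied along the clusters. In the first block of the chromosome 6 cluster, from H1-1 to H4C8, 16 of 30 control regions were overlapped by a knockdown region (53.3%). In the short middle block of H2AC11, H2AC12, H2BC11 and H2BC12, 3 of 5 were (60%). In the last block, from H3C10 to H2BC17, 2 of 13 were (15.4%), namely those at H2AC14 and H2AC17. On so few regions this is near the 10.0% of all control regions that were overlapped. The isolated control region named for H2AC1, 15691 bp from its start, was not overlapped. On chromosome 1, 3 of 6 control regions were overlapped, those named for H2BC19P, H2BC21 and H2AC21. Blocks were separated wherever listed histone genes lay over 100 kb apart.

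**Figure D1:**
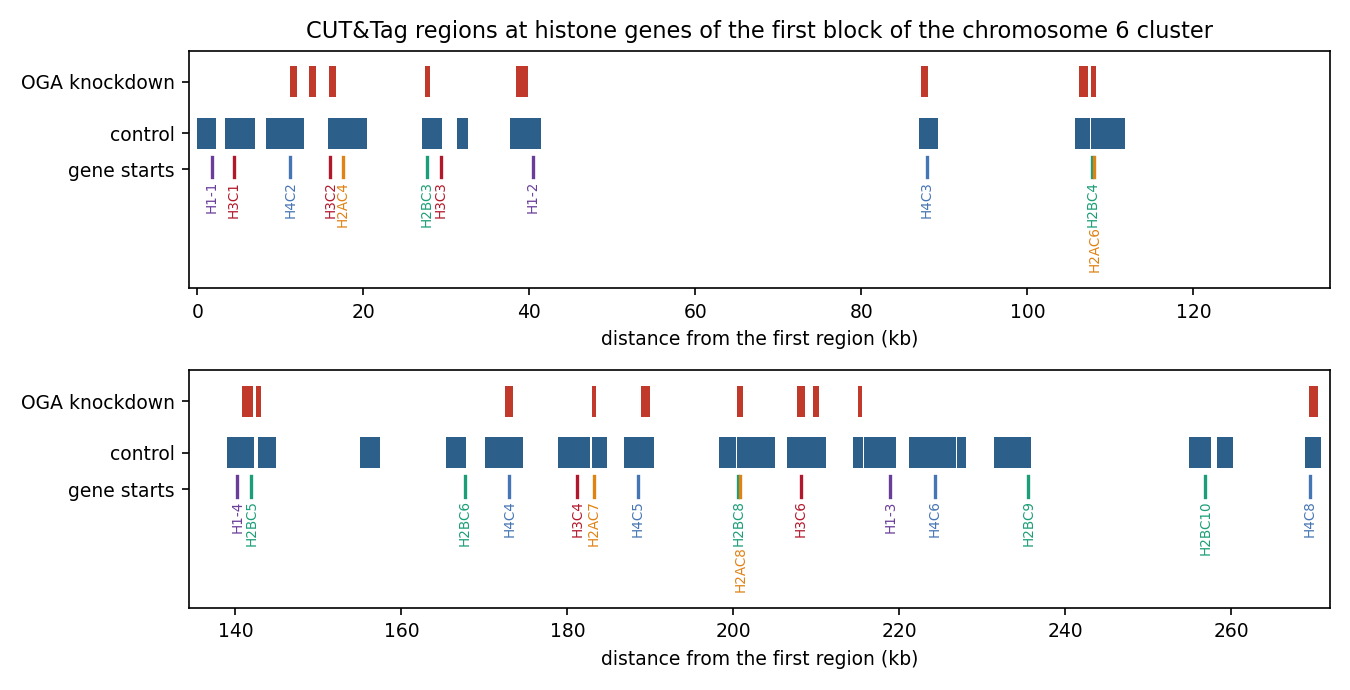
Regions of the OGA knockdown list (red) and control list (blue) at histone genes of the first chromosome 6 block, by distance in kb from the first region, drawn to scale on 2 panels that follow each other. Ticks mark gene starts, coloured by class. The 18 knockdown regions are narrow and 17 of them overlap 1 of the 30 control regions, which lie around nearly every listed start.

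In this first block, the control regions named for H1-1, H3C1, H3C3, H2BC6, H3C4, H2BC8, H4C6, H2BC9 and H2BC10 had no knockdown overlap, nor had the wider of those at H1-3. In the last block the same held for H1-5, H3C10, H3C11, H3C12, H4C12, H4C13, H2AC15, H2AC16, H2BC14 and H2BC17. Lack of overlap was usual, as 8076 of all 8977 control regions had none. H3C11 had the widest histone region of all, 6640 bp at chr6:27869265-27875904 in control, and this region also held the start of H4C13. The control regions named for H4C13 and H3C12 lay away from those genes, 7147 bp before the start of H4C13 and 4558 bp past that of H3C12.

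The cluster on chromosome 6 was dense in regions in both lists. The 1 Mb window that starts at 26 Mb held 19 knockdown regions, the most of 741 windows with any, where the median was 1. The same window held 39 control regions, ranking 2 of 1755, where the median was 3. Between the first and last listed histone gene, knockdown regions numbered 23 at histone genes, 1 at a transfer RNA gene (TRQ-TTG3-3) and 1 at LOC285819. Control regions there numbered 48 at histone genes, 20 at transfer RNA genes and 7 at other genes. Of these control regions, 21 of the 48 at histone genes were overlapped by a knockdown region, and 0 of the 20 at transfer RNA genes and 0 of the 7 at other genes were. Over all 8977 control regions the share was 10.0%. On so few regions the counts at transfer RNA genes and other genes are near that share.

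Chromosome 1 held 3 knockdown regions at histone genes, of 604 bp at H2BC19P, 965 bp at H2BC21 and 400 bp at H2AC21. Each lay wholly inside a control region. Of 13 coding histone genes that RefSeq places on chromosome 1, 2 were in the knockdown list and 3 in the control list, compared with 20 and 42 of 55 on chromosome 6. On chromosome 1 these were 15.4% and 23.1%, against 3.97% and 21.7% of all 20052 coding genes. The control share there was thus near that of all coding genes. The chromosome 1 genes in neither list include H2AC18, H2AC19, H3C13, H3C14, H3C15, H4C14 and H4C15, which occur as near-identical copies. How reads from such copies were assigned was not tested, and their absence from the lists is uncertain.

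The number of peaks behind the merged regions could be counted for each library, because peak numbers follow position along a chromosome. From H4C2 to H2AC17 on chromosome 6 the knockdown libraries numbered 73 and 59 peaks, against 131 and 120 in the control libraries. The groups did not overlap. Means were 66.0 ± 9.90 peaks after knockdown and 125.5 ± 7.78 in control (SD, n = 2 each), a ratio of 0.526. The two-sided exact permutation p was 0.333, as small as this test can give for 2 against 2 libraries, so it cannot pass a threshold of 0.05 here.

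The libraries also differed in their totals, and on that scale the cluster did not stand apart. The highest peak numbers were 14203 and 13946 in the knockdown libraries and 24287 and 28210 in the control libraries. Per 10000 of these, the same stretch held 51.4 and 42.3 peaks in the knockdown libraries and 53.9 and 42.5 in the control libraries, and the groups overlapped (exact permutation p = 0.667). In the first block, H4C2 to H4C8, the libraries numbered 36 and 29 peaks after knockdown and 46 and 45 in control. Per 10000 this was 25.4 and 20.8 after knockdown, above 18.9 and 15.95 in control (ratio 1.32, exact permutation p = 0.333). Fewer peaks were therefore numbered in this stretch after knockdown, while their share of the library's numbers was higher. The stretch begins at H4C2, the first gene of the block with a knockdown region. It leaves out the control regions named for H1-1 and H3C1, and the shares with them included are not given here.

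In the middle and last blocks, H2AC11 to H2AC17, the knockdown libraries numbered 27 and 22 peaks, against 66 and 56 in control. Per 10000 these were 19.0 and 15.8 after knockdown and 27.2 and 19.9 in control, lower in both knockdown libraries (exact permutation p = 0.333). On chromosome 1, from H2BC19P to H2AC21, there were 4 and 4 peaks after knockdown and 6 and 7 in control. Per 10000 the direction was the opposite, with 2.82 and 2.87 after knockdown and 2.47 and 2.48 in control (ratio 1.15, exact permutation p = 0.333).

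A larger share of peaks stood behind a listed region in the cluster than over the whole libraries. Part of this is built in, since each stretch begins and ends at a listed region and members were taken from the lists. How large that part is was not tested. From H4C2 to H2AC17, 34.2% and 42.4% of the peaks numbered in the knockdown libraries stood behind a listed region, against 9.53% and 9.72% over those whole libraries. In the control libraries it was 66.4% and 68.3%, against 38.5% and 32.5% over the whole libraries. In the first block the shares were 50% and 62.1% after knockdown and 80.4% and 75.6% in control. In the later blocks they were 22.2% and 27.3% after knockdown and 57.6% and 62.5% in control.

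**Figure D2:**
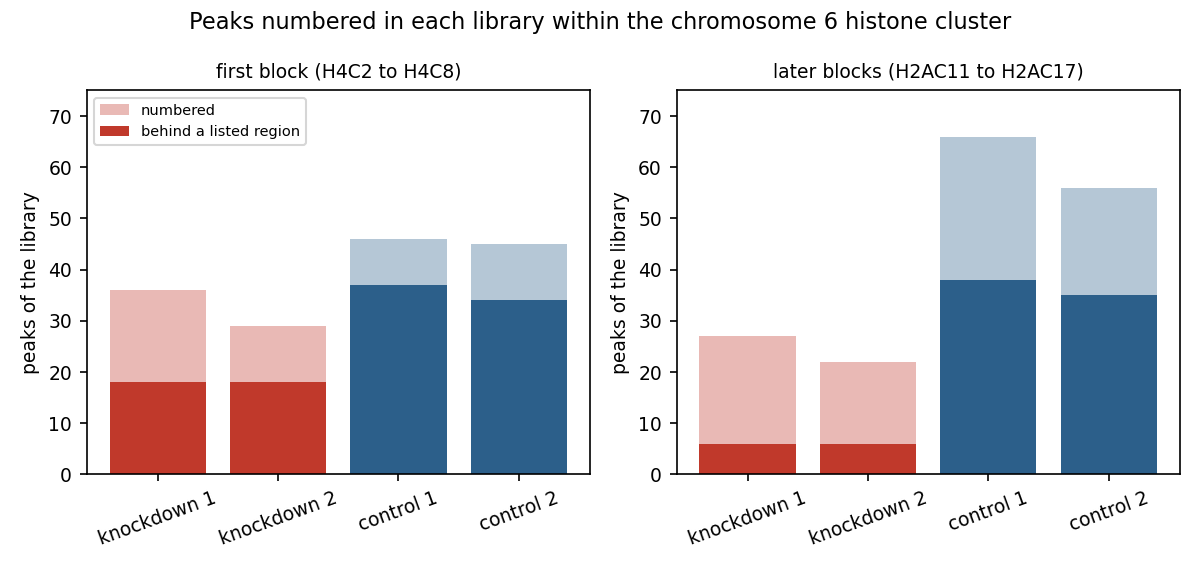
Peaks of each library within the first block and the later blocks of the chromosome 6 cluster, knockdown libraries in red and control libraries in blue. Full bars count all numbered peaks and the dark part those behind a listed region, for example 18 of 36 and 18 of 29 in the knockdown libraries of the first block.

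Histone regions were wide in control and of usual width after knockdown. The median width was 764 bp (range 368 to 1407) over the 26 histone knockdown regions, against 727 bp over all knockdown regions. In control it was 2355 bp (range 553 to 6640) over the 55 histone regions, against 1577 bp over all control regions. Of the 55, 33 were wider than 2060 bp, the limit of the widest of 4 equally filled width classes of the control list. Regions over a start were 785.5 bp wide in the median after knockdown (n = 14, against 683 bp over all such regions) and 3233 bp in control (n = 31, against 1591.5 bp).

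By class, median widths were 974.5 bp after knockdown and 2998 bp in control for H1, 499 and 1899 bp for H2A, and 735 and 2161 bp for H2B. They were 856.5 bp after knockdown and 3513 bp in control for H3, and 952 and 2687 bp for H4. All 8 knockdown regions at H2A genes, from 368 to 695 bp, were narrower than the median of the whole knockdown list. All 5 at H4 genes, from 876 to 1110 bp, were wider. The class ranges of H2A and H4 did not overlap in the knockdown list.

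The widest control regions were at H3C11 (6640 bp), H2AC17 (5839 bp), H4C6 (5585 bp), H2AC4 (4685 bp) and H3C6 (4651 bp). The widest knockdown regions were at H2BC5 (1407 bp), H1-2 (1395 bp), H2BC4 (1118 bp), H4C5 (1110 bp) and H4C8 (1096 bp). Wide control regions at histone genes often joined several peaks. In control, 18 of 55 histone regions joined more than 1 peak of a replicate, or 32.7% (21.8% to 45.9%), against 5.38% of all control regions. After knockdown 0 of 26 did, against 2.77% of all knockdown regions. How peaks were merged is not given in the sources used here.

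**Figure D3:**
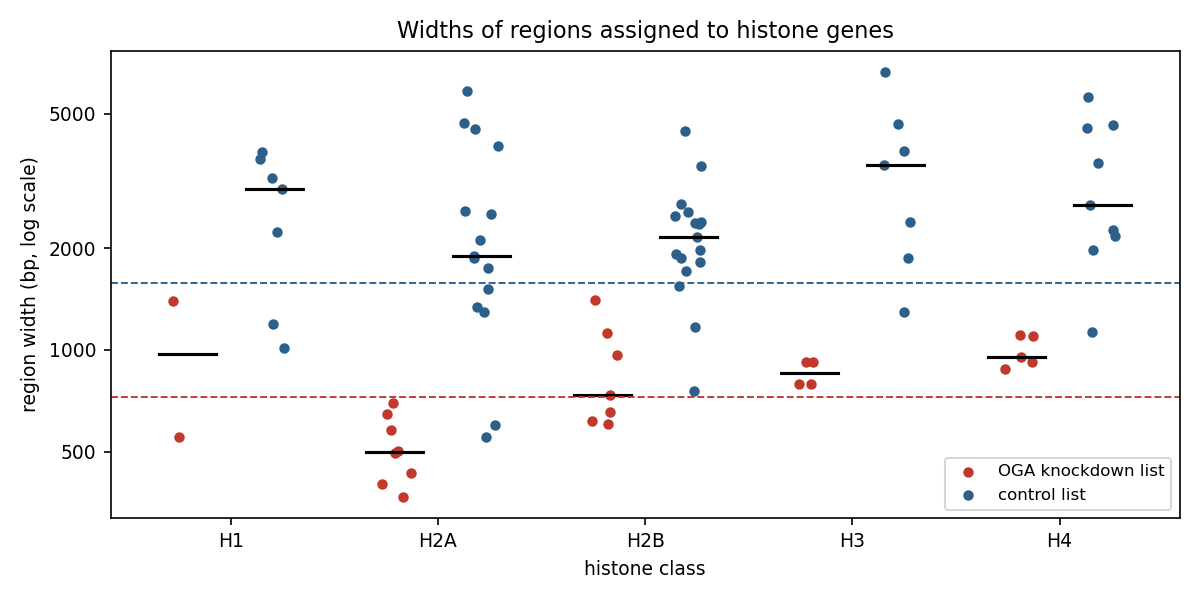
Widths in bp, on a log scale, of regions assigned to each histone class, knockdown list in red to the left of the control list in blue. Points are regions, black bars their medians, and dashed lines the medians of all 1334 knockdown regions (727 bp) and 8977 control regions (1577 bp). Control regions lie above knockdown regions in every class apart from a few H1, H2A and H2B regions.

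Within each of the 4 width classes of the control list, histone regions were overlapped by a knockdown region in a larger share of cases than other regions, on few histone regions each. In the widest class, 16 of 33 histone control regions were overlapped (48.5%), against 14.7% of the other regions there. In the narrowest class, up to 1245 bp, 2 of 7 were (28.6%), against 7.18% of the others. In the classes between, 1 of 5 (20%) and 5 of 10 (50%) were, against 7.99% and 9.55%.

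Most histone knockdown regions lay inside a control region, as knockdown regions did in general. Of the 25 that overlapped control, 23 lay wholly inside a control region (92.0%), against 83.9% of the 921 overlapping knockdown regions in all. The exceptions were the narrower H2BC5 region, with 50% of its bases in control regions, and the H2AC8 region, with 90.6%. In the 24 overlapped control regions, knockdown regions took up from 11.1% of the width, at H2AC17, to 83.9%, at H2AC11, with a median of 28.8%. Over all 901 overlapped control regions the median was 40.6%. The H3C6 control region was the sole one with 2 knockdown regions inside, of 920 bp over the start of the assigned H3C6 transcript and 793 bp further along. At H2AC17 a region of 648 bp after knockdown lay in one of 5839 bp in control, and at H4C8 a region of 1096 bp lay in one of 1975 bp.

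Knockdown regions covered the start of some core histone genes in every class and of no H1 gene. Coding genes among the members had their start covered in 19 of 46 cases after knockdown and 42 of 46 in control. At the start, coverage after knockdown and in control was 46.2% and 84.6% of 13 H2A genes, 58.3% and 91.7% of 12 H2B genes, 25% and 100% of 8 H3 genes, and 50% and 87.5% of 8 H4 genes. Of 2896 other coding genes with a control promoter region, 4.94% had the start covered after knockdown and 67.2% in control. These genes were taken for their control promoter region, which members did not need.

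All 5 H1 genes had the start and the whole gene inside a control region, and 0 of 5 had the start inside a knockdown region. At H1-2, which encodes a somatic linker histone, the knockdown region of 1395 bp ran from 584 to 1978 bases after the start, over the end of the gene. At H1-3 the knockdown region of 554 bp began 3344 bases after the start, beyond the gene. The end of H1-4 was covered by the knockdown region named for H2BC5, which took in 36.6% of the H1-4 gene.

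Knockdown regions rarely ran through a gene. Only H4C4 was covered whole after knockdown, by a region of 952 bp, whereas 25 of 46 genes were covered whole in control. Whole coverage in control was seen at 5 of 5 H1 genes, 7 of 8 H4, 5 of 8 H3, 6 of 13 H2A and 2 of 12 H2B genes. Such counts depend on gene length, and the share over other coding genes is not given here. H2BC4, H3C6 and H2BC21 were listed at long transcripts of 10757, 3296 and 2224 bp and were not covered whole. H4C5 differed from the other listed H4 genes in having its end and not its start covered after knockdown.

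**Figure D4:**
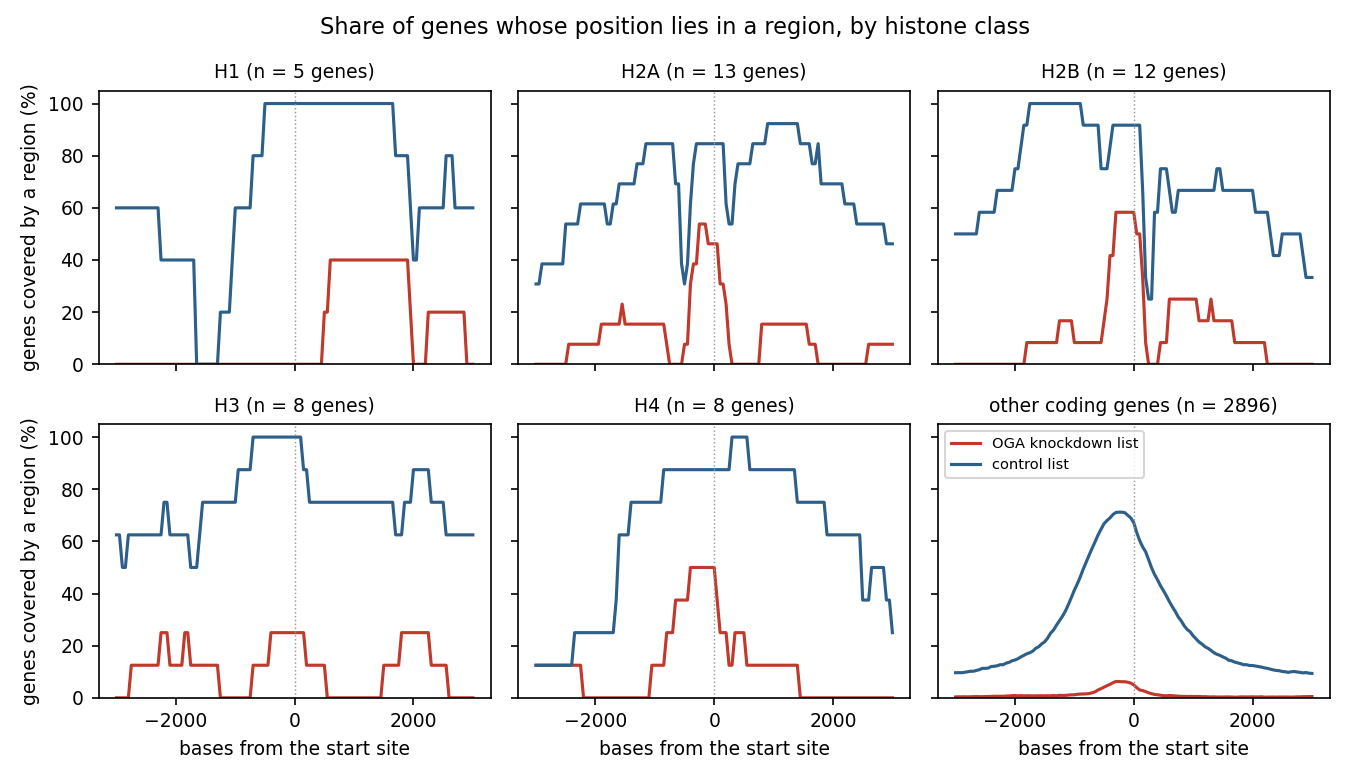
Share of genes in percent that lie inside a region at each distance in bases from the start, for each class and for 2896 other coding genes with a control promoter region; red is the knockdown list and blue the control list. Control coverage of H2B genes falls to 25% at 250 bases after the start and that of H2A genes to 53.8%, while H1 and H4 genes stay at 100% and 87.5% there.

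Control coverage of H2A and H2B genes was uneven around the start. At 250 bases past the start, control regions covered 53.8% of H2A and 25% of H2B genes, compared with 84.6% and 91.7% at the start itself. H1, H3 and H4 genes were covered there in 100%, 75% and 87.5% of cases, and other coding genes in 53.0%, so the H2A share was close to that of other genes and the H2B share below it. Within 2000 bases of the start, H2A genes were covered least 500 bases before it, in 4 of 13 cases (30.8%), against 66.8% of other coding genes. This is not separate from the H2B dip where the genes are divergent neighbours. For example, the control gaps at -577 to -393 bases from the H2AC6 start and -575 to -336 from that of H2AC8 lie inside H2BC4 and H2BC8. They are the H2B breaks described below, seen from the other start. After knockdown, coverage at 250 bases was 7.69% of H2A, 0.0% of H2B, 0.0% of H1, 12.5% of H3 and 12.5% of H4 genes, and 1.93% of other coding genes.

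Breaks between neighbouring regions lay inside some of these genes. A break here is a gap of at most 1000 bp between 2 regions of a list that begins inside a gene, under 500 bases after the start, a definition chosen after the profiles were seen. In control it was present in 12 of 46 histone genes, against 1.09% of the 2942 coding genes compared. Those 12 were 7 of 12 H2B and 5 of 13 H2A genes, with 0 of 5 H1, 0 of 8 H3 and 0 of 8 H4 genes. Of the 2896 other coding genes 20 had one. The 12 genes shared 11 breaks, since one of 473 bp lies in both H2AC20 and H2AC21.

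In H2B genes the breaks were 109 to 549 bp long (median 240) and began 103 to 221 bases after the start. At H2BC8 the break ran from 103 to 342 bases after the start, at H2BC12 from 103 to 418, and at H2BC4 from 147 to 331. At H2BC11, H2BC17, H2BC21 and H2BC5 it began 185, 221, 167 and 189 bases after the start. In H2A genes breaks were 164 to 473 bp long, for example from 166 to 329 bases after the start of H2AC11 and from 175 to 370 after that of H2AC16. All 11 left the start itself covered.

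The knockdown list had such a break in 3 of 46 histone genes, against 0.136% of the 2942 coding genes, and in 1 of the 2896 others. The 3 were H2BC4, H2BC5 and H2BC12, and all had a break in control as well. After knockdown the H2BC4 break ran from 137 to 551 bases after the start, compared with 147 to 331 in control. The H2BC12 break ran from 39 to 593 bases after knockdown and from 103 to 418 in control. At H2BC5 it ran from 113 to 410 bases after knockdown and from 189 to 737 in control. H2A and H2B genes occur in many similar copies. Whether reads in these bodies were discarded or shared among copies was not tested.

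Divergent pairs were taken as an H2A and an H2B gene, both listed, with starts within 1 kb on opposite strands. There were 7, with 233 to 251 bp between the starts. Another 5 pairs of H2A and H2B neighbours on opposite strands had only 1 gene listed and were left out. One region covered both starts in 5 of 7 pairs after knockdown and in 6 of 7 in control. In each of these the stretch between the starts was covered whole. The 5 pairs were H2BC4 with H2AC6, H2BC8 with H2AC8, H2BC11 with H2AC11, H2BC12 with H2AC12, and H2BC17 with H2AC17.

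The regions over both starts were short after knockdown, at 580 bp for H2AC6, 695 bp for H2AC8, 502 bp for H2AC11, 368 bp for H2AC12 and 648 bp for H2AC17. The matching control regions were 4021, 4516, 598, 2118 and 5839 bp wide, in the same order of genes. All were named for the H2A gene in both lists. As a result both genes of a pair were named in 2 of 7 pairs after knockdown. A count by gene name therefore misses H2BC8, H2BC11 and H2BC17, whose starts were covered after knockdown. In control both genes were named in 7 of 7 pairs, through a further control region on the H2B side. The choice of pairs fixed this control count, since both genes had to be listed and every listed H2A and H2B gene was in the control list.

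**Figure D5:**
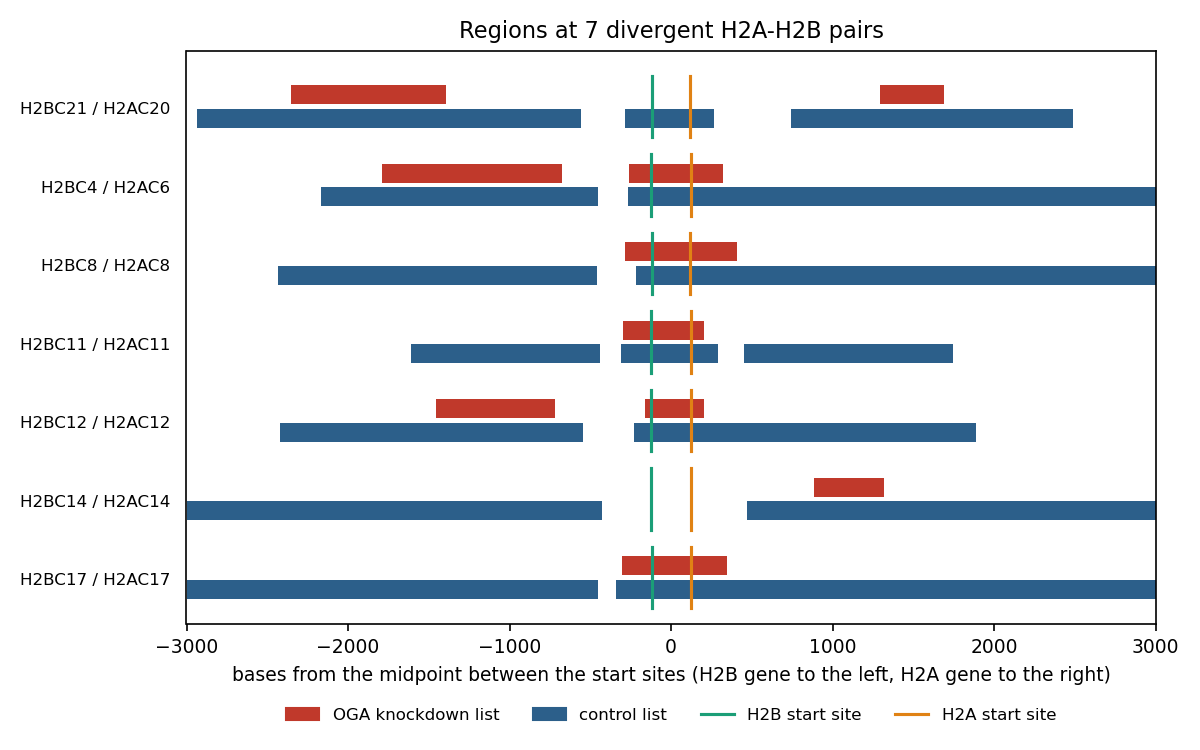
Regions of the knockdown list (red) above those of the control list (blue) around 7 divergent pairs, in bases from the midpoint between the starts, with the H2B gene to the left. Green and orange lines are the H2B and H2A starts, and regions are clipped at 3000 bases. One knockdown region spans both starts in 5 pairs, and control regions break just left of the H2B start in 6.

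The 2 other pairs departed from this pattern. At H2BC21 and H2AC20 on chromosome 1, a control region of 553 bp at chr1:149886516-149887068 covered both starts, and knockdown regions lay outside them. At H2AC14 and H2BC14 neither list had a region over either start. Control regions of 2531 bp and 3504 bp flanked a gap of 894 bp there, and a knockdown region of 431 bp lay 764 bases past the H2AC14 start. The H2BC14 window printed above carries an octamer match, as do those of H2AC6 and H2AC11, and 5 CCAAT matches.

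Other genes of histone production were in the lists as follows, where 3.97% of all coding genes were in the knockdown list and 21.7% in the control list. In transcription and the histone locus body, 0 of 11 genes were in the knockdown list and 5 in the control list: CASP8AP2, HINFP (an H4 promoter factor), YY1, POU2F1 (OCT1, an octamer factor) and E2F1. In 3' end processing, 0 of 10 were in the knockdown list and 3 in control, SLBP (the stem-loop binding protein), LSM10 and SYMPK. Among chaperones and the acetyltransferase HAT1, 1 of 10 was in the knockdown list, CHAF1A of the CAF-1 complex, and 3 in control, NASP, HAT1 and DAXX. Of 12 replication-independent variants, H3-3B was in the knockdown list, and H2AX, H2AJ and CENPA in the control list. In each of these sets 0 genes were in both lists, which on so few genes is near the 14.3% of all control-list genes that were also in the knockdown list.

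For the cells themselves, and against the same 3.97% and 21.7% of all coding genes, naive markers were in the knockdown list in 4 of 6 cases and in the control list in 4 of 6. Pluripotent markers were in 1 and 4 of 4 cases. Fibroblast markers were in 0 of 4 cases in both lists. These are occupancy calls and not expression.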

How the data were processed

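For each group the authors deposited a single table of annotated regions that joins its replicates. Per the file headers, its deposited columns hold position, width, annotation, gene, distance to the nearest start and the names of the numbered replicate peaks. Other values such as counts, signals or scores are not among them. Tools named in the submitters' processing notes, whose roles are not stated, are ChIPseeker (1.12.1), SEACR (1.3) and Bowtie2 (2.3.4.3), besides edgeR and DESeq2. The build is GRCh38.p13. Caller settings, controls and depth were not stated. The control lines include 1 repeat, leaving 8977 of 8978.

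Regions sharing 1 bp or more were counted as overlapping, and shares carry Wilson 95% intervals. All 48 symbols matched RefSeq. Peaks per library were counted from peak numbers, and 4 libraries were compared by exact permutation. On simulated lists, 300 of 300 planted overlaps among 1000 regions were found. The genes named are members in both lists, the 5 widest regions of each list, members outside the clusters or in divergent pairs, and genes of histone production. Other members were named after their values were seen. Members and lists were chosen with earlier results of these data known, and the limits for pairs, breaks, blocks and windows after seeing the data. Motifs were searched in RefSeq windows of 300 bases, and protein sequences were not used here. Software was matplotlib 3.10.9, scipy 1.17.1, pandas 2.3.3, numpy 2.4.6 and Python 3.11.15.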

Additional observations from a re-analysis of the deposited data

How the results depend on the processing

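Of 35 alternatives, 27 left the value within its interval, or a count within 1.5 times, or a difference on the same side of 0, 7 moved it and 1 reversed it. Keeping only regions no narrower than their list's median width, histone genes in the knockdown list numbered 12 and the control overlap was 27.9% (all regions 7.14%). When the control list was limited to its widest 1334 regions, 24 histone genes were in control and 46.2% of histone knockdown regions overlapped (all 17.8%). With centres within 500 bp, 38.5% of histone knockdown regions (all 52.2%) and 18.2% of histone control regions (all 7.75%) were shared, so the histone share of knockdown regions then lay below that of all. Over starts only, the control median width was 3233 bp. The cause was not tested.

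Peaks numbered on chromosome 6 differed by -59.5 and in its first block by -13.0, knockdown minus control. Per 10000 of the library, the whole cluster kept its sign at -1.38 but the groups then overlapped (ratio 0.971, against 0.526 in peaks). The first block, counted from H4C2, reversed to 5.62. Without a replicate the differences were -61.0 to -58.0 and -16.0 to -10.0. With a replicate block they were -59.5 and -13.0 (exact sign-flip p = 0.5, the smallest that 2 pairs allow); whether the numbers pair the samples could not be checked. Leaving out a replicate was not possible for merged regions, and depth is unknown.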
